A study of Mus musculus with 6 samples.

Results

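Neutrophil and macrophage transcripts were followed in whole olfactory mucosa, the lining of the nose in which odours are sensed, through 8 genes picked by name: 4 of neutrophils (S100a8, S100a9, Ngp and Camp) and 4 of macrophages (Cd68, Csf1r, Cx3cr1 and C1qa). All 8 were found among the 40273 genes of the deposited table, and all 8 passed the filter on low values, a normalized count of at least 10 in at least 3 libraries. The libraries came from 3 mice with the eC element deleted (genotype delta eC) and 3 wildtype control mice, and the design text calls them separate, age matched animals. All were males of the mixed background 129S6;C57BL/6J at postnatal day 30, and the labels do not say how many copies of the element a mouse with the deletion lacked. The deleted element is a stretch of 1005 bases of chromosome 7 (102916999 to 102918004; no build is given, and the submitters' processing notes name GRCm38.p6), and the series title calls it an enhancer of class I odorant receptors. None of the 8 genes lies on chromosome 7, so none is a neighbour of the element.

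Neutrophils are short-lived phagocytes that form in bone marrow and pack their granules in stages. Myeloperoxidase and the serine proteases are made first, the cathelicidin-type proteins and lactoferrin of the specific granules later, and by the time the cell reaches the blood most of these mRNAs have been shut down, while S100a8 and S100a9 mRNA stays abundant. Epithelia can also make S100a8 and S100a9. Macrophages are resident in the mucosa, depend on the receptor encoded by Csf1r, and in the olfactory epithelium clear dying sensory neurons. In bulk tissue, fewer cells of a type and less RNA per cell cannot be told apart.

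The olfactory identity of the tissue was plain in every library. Omp, which marks mature olfactory neurons, had 125370, 150823 and 162748 normalized counts in deletion libraries and 149810, 181804 and 167705 in control libraries (replicates 1, 2 and 3, an order kept throughout). Reads assigned to genes numbered 49279931, 34169776 and 30342763 in deletion libraries and 50906277, 31281010 and 31100948 in control libraries. Olfr571, the receptor gene that the element overlaps, had no read in any deletion library and 61, 39 and 34 reads in control libraries, which checks the labels. By genes detected, the libraries part into a set of 3 (deletion replicates 1 and 2 and control replicate 1, with 26564 to 27879 genes) and another set of 3 (deletion replicate 3 and control replicates 2 and 3, with 36197 to 37456 genes), a split that the labels do not explain.

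The start regions of the neutrophil genes are shown because these genes varied together across the libraries. Their Pearson correlations on the log2(value + 1) scale lay between 0.77 (S100a8 with Camp) and 0.99 (S100a8 with S100a9). The macrophage genes also varied together, with correlations between 0.72 (Csf1r with Cx3cr1) and 0.85 (Csf1r with C1qa). The start region of Cd68 is shown because it is the macrophage gene with matches to compare with. Each run is the 250 bases before the RefSeq start, 5′ to 3′ on the gene's strand, from build GRCm38.p6. Capitals mark matches, on either strand, to TTNNGNAA (a loose form of the site of C/EBP factors, which drive granulocyte genes), GAGGAA (a core of the site of the myeloid factor PU.1) and TATAAA (the TATA box). The windows are chr9:110419558-110419807 on the plus strand for Ngp, chr9:109849457-109849706 on the minus strand for Camp, chr3:90668821-90669070 on the plus strand for S100a8, chr3:90695722-90695971 on the minus strand for S100a9 and chr11:69666171-69666420 on the minus strand for Cd68.
Ngp: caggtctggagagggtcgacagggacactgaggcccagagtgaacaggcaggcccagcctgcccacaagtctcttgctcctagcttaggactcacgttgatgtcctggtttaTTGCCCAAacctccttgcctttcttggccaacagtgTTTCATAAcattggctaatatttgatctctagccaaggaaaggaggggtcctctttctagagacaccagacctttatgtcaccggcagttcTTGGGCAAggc
Camp: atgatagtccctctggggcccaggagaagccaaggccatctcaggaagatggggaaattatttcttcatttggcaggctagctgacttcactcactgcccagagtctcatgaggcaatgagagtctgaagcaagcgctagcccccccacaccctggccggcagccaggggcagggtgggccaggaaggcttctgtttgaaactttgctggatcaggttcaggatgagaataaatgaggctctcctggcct
S100a8: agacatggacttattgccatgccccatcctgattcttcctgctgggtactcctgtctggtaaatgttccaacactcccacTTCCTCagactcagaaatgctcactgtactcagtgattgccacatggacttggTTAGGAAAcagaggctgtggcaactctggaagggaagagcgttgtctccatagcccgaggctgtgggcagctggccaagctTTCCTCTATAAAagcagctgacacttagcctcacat
S100a9: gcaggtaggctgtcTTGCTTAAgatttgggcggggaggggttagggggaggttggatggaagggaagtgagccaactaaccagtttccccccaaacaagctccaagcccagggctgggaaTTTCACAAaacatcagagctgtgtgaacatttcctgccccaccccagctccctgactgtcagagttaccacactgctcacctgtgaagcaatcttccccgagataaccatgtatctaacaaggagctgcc
Cd68: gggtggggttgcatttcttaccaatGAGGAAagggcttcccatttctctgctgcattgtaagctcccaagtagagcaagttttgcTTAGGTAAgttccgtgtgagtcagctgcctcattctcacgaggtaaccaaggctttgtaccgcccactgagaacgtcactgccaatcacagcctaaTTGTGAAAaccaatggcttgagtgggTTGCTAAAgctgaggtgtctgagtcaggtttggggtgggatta

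Ngp held 3 matches to TTNNGNAA, S100a9 had 2, S100a8 had 1 and Cd68 had 3, and Camp had 0. At least 1 such match was found in 36.8% of the 32851 RefSeq start regions of the same length. GAGGAA was matched at 2 places in S100a8 and 1 in Cd68, and in 23.3% of all start regions. TATAAA was matched only in S100a8 among these 5, 30 bases before the start and directly after a GAGGAA match on the other strand, and in 12.4% of all start regions. The start region of Cx3cr1 held no match to any of the 3 motifs. Camp and Ngp therefore do not share these letters in these windows, although their levels ran together, as described next. The windows were set by RefSeq starts. Those of Camp, Ngp and S100a8 reach into the spans that GENCODE vM21 gives these genes, which start at 109849617, 110419747 and 90668978. The absence of a match in Camp covers this window only. A match is a description of the letters and does not show a bound factor.

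Ngp and Camp encode related proteins of the cathelicidin family. Camp is the precursor of the antimicrobial peptide CRAMP, and Ngp, neutrophilic granule protein, is stored in the same specific granules. Both genes lie on chromosome 9, Camp at 109847379 to 109849617 on the minus strand and Ngp at 110419747 to 110423012 on the plus strand, 570 kb apart (GENCODE vM21, GRCm38). No annotated gene overlaps either.

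Ngp had 11.2, 65.1 and 38.6 normalized counts in deletion libraries and 8.13, 63.1 and 91.9 in control libraries. The 2 replicate 1 libraries, one of each genotype, were the lowest, and the groups overlapped. The highest library held 11.3 times the level of the lowest. These values rest on 15, 59 and 32 reads in deletion libraries and 11, 55 and 79 reads in control libraries. The exact 95% Poisson interval of the 15 reads of deletion replicate 1 runs from 8.40 to 24.7. That of the 11 reads of control replicate 1 runs from 5.49 to 19.7. As normalized counts these intervals are 6.27 to 18.5 and 4.06 to 14.5. Both lie below the interval of deletion replicate 3, the next lowest library (26.4 to 54.5). Counting error is the only error these intervals cover. Ngp averaged 38.3 ± 27.0 normalized counts in deletion mucosa and 54.4 ± 42.6 in control mucosa (SD, n = 3 each).

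Camp followed Ngp at a lower level. It had 2.99, 22.1 and 10.9 normalized counts in deletion libraries and 2.22, 29.9 and 52.3 in control libraries. Again both replicate 1 libraries were the lowest and control replicate 3 the highest, 23.6 times the lowest. The replicate 1 libraries held 4 reads (deletion; 95% Poisson interval 1.09 to 10.2) and 3 reads (control; 0.619 to 8.77), although they were the deepest sequenced. Camp averaged 11.98 ± 9.59 normalized counts in deletion mucosa and 28.1 ± 25.1 in control mucosa (SD, n = 3 each). The Pearson correlation of Ngp with Camp on the log2(value + 1) scale was 0.98 over the 6 libraries, a description of points that share genotype groups and library preparation.

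S100a8 and S100a9 encode the calcium-binding subunits of calprotectin, the main cytosolic protein pair of mature neutrophils. They are neighbours on chromosome 3, S100a8 at 90668978 to 90670035 on the plus strand and S100a9 at 90692632 to 90695721 on the minus strand, 22.6 kb apart, and no annotated gene overlaps them. S100a8 had 214, 285 and 409 normalized counts in deletion libraries and 225, 296 and 483 in control libraries. S100a9 had 219.6, 319 and 414 in deletion libraries and 234, 297 and 565 in control libraries. In both genotypes replicate 1 was the lowest library and replicate 3 the highest for both genes, and the groups overlapped.

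The calprotectin pair kept a nearly fixed ratio while the granule pair did not follow it in size. S100a9 over S100a8 lay at 1.03, 1.12 and 1.01 in deletion libraries and 1.04, 1.00 and 1.17 in control libraries. The summed level of Ngp and Camp came to 3.28%, 14.4% and 6.01% of that of S100a8 and S100a9 in deletion libraries and to 2.26%, 15.7% and 13.8% in control libraries. From the lowest to the highest library S100a8 spanned 2.26-fold and S100a9 2.57-fold, against 11.3-fold for Ngp and 23.6-fold for Camp. Within groups, the SD of log2(value + 1) was 0.51 for S100a8, 0.57 for S100a9, 1.55 for Ngp and 1.77 for Camp. The median over the 20368 genes tested was 0.16. Among these genes S100a8 was at the 88.8th, S100a9 at the 90.5th, Ngp at the 98.4th and Camp at the 98.7th percentile. The ranking was not matched for level, and counting error adds to the SD of genes with few reads, such as Ngp and Camp.

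**Figure D1:**
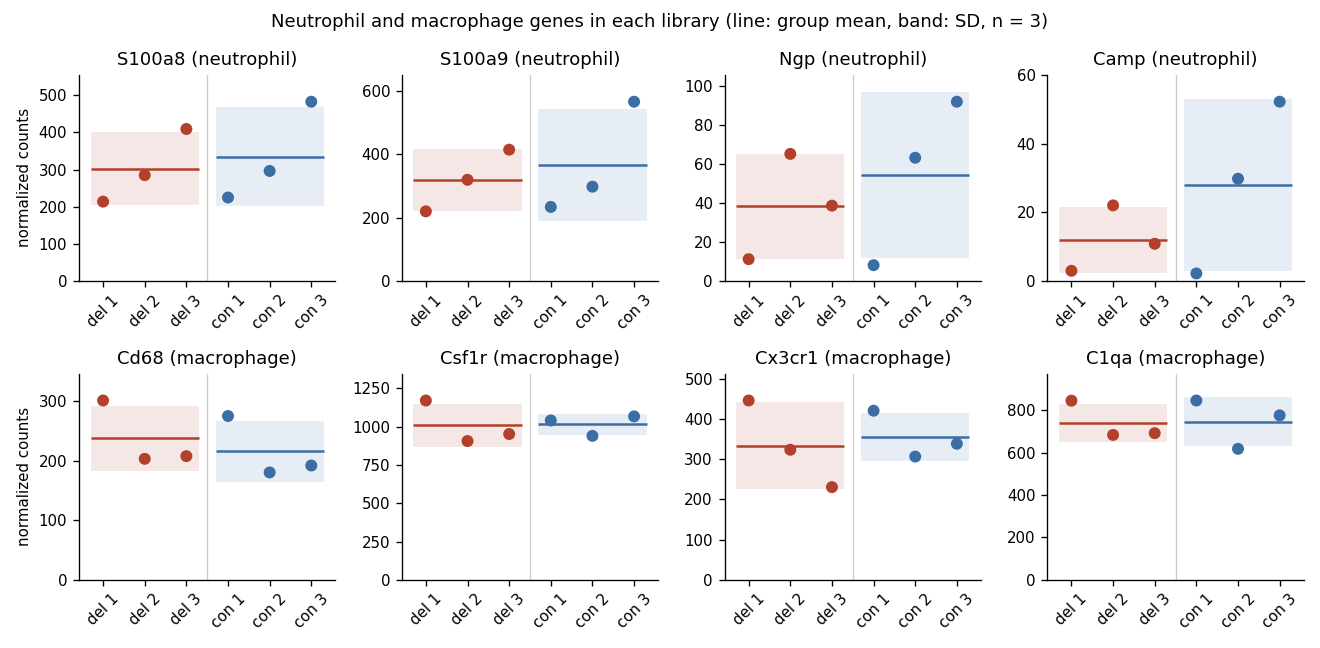
Normalized counts (vertical axes, from 0) of the 8 genes in each library, deletion replicates in red and control replicates in blue; lines are group means and bands the SD (n = 3 each). Ngp and Camp sit at 11.2 and 2.99 in deletion replicate 1 and at 8.13 and 2.22 in control replicate 1, below the other libraries of both groups, while Csf1r and C1qa stay within 1.29-fold and 1.37-fold across all 6.

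The macrophage genes were steadier. Csf1r, the receptor for the growth factors CSF1 and IL-34 (chromosome 18, 61100598 to 61132149, plus strand), had 1171, 906 and 952 normalized counts in deletion libraries and 1041, 940.3 and 1068 in control libraries. C1qa, the A chain of complement C1q (chromosome 4, 136895917 to 136898803, minus strand), had 845, 683 and 692 in deletion libraries and 846, 618 and 776 in control libraries. Deletion replicate 1 was the highest library for Csf1r, control replicate 1 and deletion replicate 1 were the highest for C1qa, and the groups overlapped for both.

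Cd68, a lysosomal glycoprotein of macrophages (chromosome 11, 69664213 to 69666153, minus strand), had 301, 203 and 208 normalized counts in deletion libraries and 275, 180.3 and 192 in control libraries. Cx3cr1, the receptor of the chemokine fractalkine (chromosome 9, 119901616 to 120069879, minus strand), had 446, 323 and 231 in deletion libraries and 421, 307 and 338 in control libraries. In both genotypes the replicate 1 library was the highest for Cd68 and Cx3cr1, the libraries in which the neutrophil genes were lowest. The annotated span of Cx3cr1 overlaps 9 other genes, 3 of them on the same strand, and that of Csf1r overlaps Hmgxb3 and Mir6983, so reads of these 2 members may be shared. No annotated gene overlaps Cd68 or C1qa. From the lowest to the highest library these genes spanned 1.29-fold (Csf1r), 1.37-fold (C1qa), 1.67-fold (Cd68) and 1.93-fold (Cx3cr1), and the within-group SD of log2(value + 1) lay between 0.15 (Csf1r) and 0.37 (Cx3cr1).

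Levels were set side by side between genes as RPKM, reads scaled to exon length and to library depth, given as means ± SD with n = 3 each. C1qa averaged 19.21 ± 2.498 RPKM in deletion mucosa and 19.6 ± 2.69 in control mucosa. S100a9 averaged 16.4 ± 5.12 RPKM in deletion mucosa and 19.2 ± 9.48 in control mucosa, and S100a8 11.8 ± 3.95 in deletion and 13.2 ± 5.44 in control mucosa. The calprotectin genes thus stood beside C1qa at the top of the order. Cd68 averaged 5.10 ± 1.22 RPKM in deletion mucosa and 4.68 ± 0.992 in control mucosa, Csf1r 4.73 ± 0.702 in deletion and 4.81 ± 0.289 in control mucosa, and Cx3cr1 2.00 ± 0.651 in deletion and 2.15 ± 0.300 in control mucosa. Ngp averaged 0.842 ± 0.582 RPKM in deletion mucosa and 1.23 ± 0.968 in control mucosa, and Camp 0.423 ± 0.334 in deletion and 1.03 ± 0.917 in control mucosa. The granule genes were at the bottom of the order. The library ranges of C1qa, S100a9 and S100a8 overlapped from neighbour to neighbour, as did those of Cd68 and Csf1r and those of Cx3cr1, Ngp and Camp. S100a8 (lowest library 8.36) lay above Cd68 (highest 6.51) in every library, and Csf1r (lowest 4.16) above Cx3cr1 (highest 2.69).

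The comparison of genotypes asks whether mucosa without the element differs in these immune transcripts. None of the 8 genes passed limma on log2(value + 1): 0 were called at an adjusted p under 0.05, where 0.0736% of the 20368 genes tested were called (15 genes), and 0 had an unadjusted p under 0.05, where 2.7% of all genes did. EdgeR's quasi-likelihood test on the recovered reads also called 0 of the 8, beside 0.0752% of all genes, and so did DESeq2, beside 0.129%. The groups did not separate for any of the 8, while they did for 7.68% of all genes tested. Of the 8 fold changes, 1 (Cd68) lay above 0, against 52.5% of all genes. The median was -0.20 for the neutrophil genes and -0.01 for the macrophage genes, beside 0.01 over all genes.

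Among the macrophage genes the intervals were narrowest for Csf1r and C1qa. The log2 fold change of Csf1r, deletion over control, was -0.02 ± 0.11 (SE; adjusted p = 0.994, limma), with a 95% interval equal to 0.830-fold to 1.18-fold. C1qa had -0.01 ± 0.14 (0.800-fold to 1.24-fold), Cx3cr1 had -0.13 ± 0.23 (0.632-fold to 1.32-fold) and Cd68 had 0.14 ± 0.21 (0.788-fold to 1.54-fold).

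Among the neutrophil genes the intervals were widest for Camp and Ngp, and those of S100a8 and S100a9 were nearer in width to those of Cd68 and Cx3cr1. The log2 fold change of Camp was -0.76 ± 1.07 (SE; adjusted p = 0.982, limma), with a 95% interval equal to 0.107-fold to 3.28-fold, and that of Ngp was -0.26 ± 0.92 (adjusted p = 0.983, limma; 0.194-fold to 3.62-fold). S100a8 had -0.12 ± 0.31 (0.561-fold to 1.504-fold) and S100a9 had -0.15 ± 0.34 (0.528-fold to 1.55-fold). With 3 animals a group, these intervals therefore do not exclude a severalfold difference in Ngp or Camp in either direction. These fold changes are on the log2(value + 1) scale. With DESeq2 on the recovered reads that of Camp was -1.24 ± 1.00 (SE), with an adjusted p of 1.00.

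**Figure D2:**
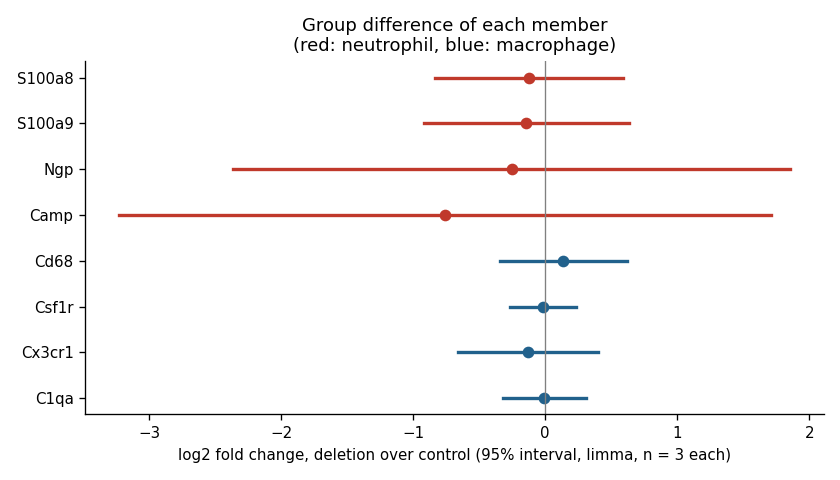
Log2 fold change of each gene, deletion over control (horizontal axis), with its 95% interval from limma (n = 3 each), neutrophil genes in red and macrophage genes in blue. All 8 intervals include 0, and that of Camp, from -3.23 to 1.71, is the widest, while that of Csf1r runs from -0.27 to 0.24.

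Accounting for the library sets turned the sign of 3 neutrophil estimates and gave no call among the 8 genes. With a term for the set in the model, which called 0.177% of all genes, S100a8 had a log2 fold change of 0.12 ± 0.19, S100a9 0.10 ± 0.24, Ngp 0.34 ± 0.69 and Camp -0.10 ± 0.82 (SE; adjusted p = 1.00 each, limma). Within the set with deletion replicates 1 and 2 and control replicate 1, where 0.00982% of all genes were called, Ngp had 1.64 ± 1.03 and Camp 1.58 ± 1.06 (SE, with the 1 control library assumed to vary like the deletion libraries). Within the set with deletion replicate 3 and control replicates 2 and 3, Ngp had -0.96 ± 0.32 and Camp -1.77 ± 0.44 (SE; adjusted p = 0.505 and 0.0763, limma, with 1 deletion library assumed to vary like the controls, and 0.442% of all genes called). Cx3cr1 had -0.31 ± 0.15 with the term for the set and -0.48 ± 0.18 within the set with 2 control libraries (SE; adjusted p = 1.00 and 0.762, limma), against -0.13 ± 0.23 without the set. The authors' deposited table gave an adjusted p of 1.00 for all 8 genes.

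Summed over the 4 genes of each type, neutrophil transcripts had 447, 691 and 873 normalized counts in deletion libraries and 469, 687 and 1192 in control libraries. The macrophage sums were 2763, 2116 and 2082 in deletion libraries and 2582, 2045 and 2373 in control libraries. The neutrophil sum came to 0.162, 0.327 and 0.419 of the macrophage sum in deletion libraries and to 0.182, 0.336 and 0.502 in control libraries. In both genotypes the lowest ratio belonged to replicate 1 and the highest to replicate 3, and the ratio averaged 0.302 ± 0.130 in deletion mucosa and 0.340 ± 0.160 in control mucosa (SD, n = 3 each). The difference in mean log2 ratio was -0.16, with a within-group SD of 0.73. Most of each neutrophil sum came from S100a8 and S100a9, with 433, 604 and 823 in deletion libraries and 458, 594 and 1048 in control libraries. With each member weighted equally, by its log2(value + 1), the difference was -0.32, with a within-group SD of 1.25.

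**Figure D3:**
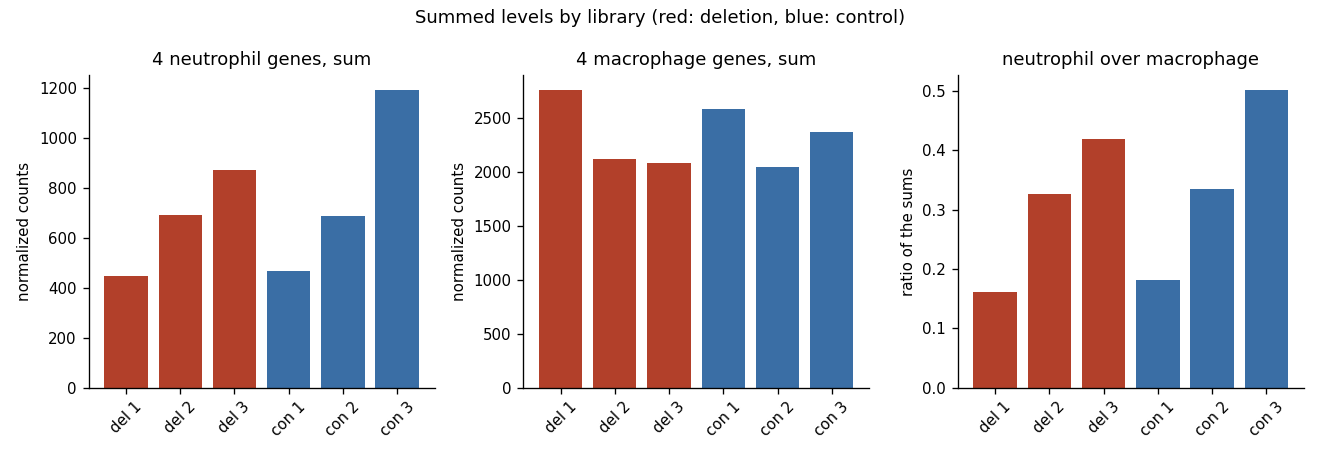
Summed normalized counts of the 4 neutrophil genes, of the 4 macrophage genes, and the ratio of the sums (vertical axes) in each library, deletion in red and control in blue. The ratio is 0.162 and 0.182 in the replicate 1 libraries and 0.419 and 0.502 in the replicate 3 libraries of deletion and control.

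The replicate 1 libraries were also the deepest, and their part in the low neutrophil values was not tested. Without both of them, an alternative chosen after the data were seen, no member was called, beside 0.0442% of all genes. Camp then had a log2 fold change of -1.29 ± 0.50 and Ngp -0.59 ± 0.33 (SE; adjusted p = 0.959 each, limma), from 22.1 and 10.9 normalized counts of Camp in deletion libraries against 29.9 and 52.3 in control libraries.

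Other genes, listed by name for stages of the neutrophil and for other cells, were measured in the same libraries. In whole mucosa their reads cannot be assigned to a cell type. The lists held 137 genes in 13 groups, of which limma tested 111. Of these 111, DESeq2 gave an adjusted p to 111 and edgeR to 106. Each tool called 0 of them, in either direction. Listed genes outside limma's filter were not counted for DESeq2 and edgeR. At an unadjusted p under 0.05 limma gave 4 of the 111 (P2ry12, Hba-a1, Alas2 and Mzb1), where 2.7% of all genes tested had one. Of the 8 listed genes of early precursors and azurophil granules, 2 passed the filter. Mpo, myeloperoxidase of the azurophil granules, had 4.48, 18.8 and 20.5 normalized counts in deletion libraries and 1.48, 23.0 and 31.4 in control libraries, with both replicate 1 libraries lowest. Prtn3, proteinase 3, had 62.7, 87.2 and 68.8 in deletion libraries and 70.2, 85.0 and 77.9 in control libraries, a span of 1.39-fold. The remaining 6 stayed low in every library. Ctsg, cathepsin G, for example had 0, 5.52 and 6.04 in deletion libraries and 0, 3.44 and 9.30 in control libraries. Gfi1 and Cebpe, transcription factors of granulocyte precursors and the next highest of this list, reached at most 16.9 and 12.1.

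Of the 9 tested genes of the specific and gelatinase granules, 2 had a correlation with Ngp above 0 and 0 had one over 0.9. The values ran from -0.96 (Hp) to 0.78 (Mmp8), and the share of all tested genes above 0 was not counted. Mmp8, neutrophil collagenase, had 6.72, 8.83 and 20.5 normalized counts in deletion libraries and 5.91, 16.1 and 22.1 in control libraries (Pearson r with Ngp 0.78). Like Ngp, it was lowest in both replicate 1 libraries, whereas the 4 most abundant genes of the list were not. Ltf, lactoferrin, also a secretion of nasal glands, had 50321, 17057 and 30730.1 normalized counts in deletion libraries and 42683, 14433 and 24920.5 in control libraries. It was highest in the replicate 1 libraries, where Ngp was lowest (Pearson r with Ngp -0.84). Lcn2, the iron-siderophore binder lipocalin 2, had 1894, 835 and 571 in deletion libraries and 712, 409.9 and 465 in control libraries. Pglyrp1, a peptidoglycan recognition protein, had 3323, 1342 and 1112 in deletion libraries and 2144, 428 and 730.3 in control libraries. Both were highest in the replicate 1 library of each genotype. Mmp9, a gelatinase also made by osteoclasts, spanned 1.48-fold. Of the 9 tested genes of this list, 7 had a fold change above 0, with a median of 0.26 and 0 called.

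Of the 12 tested genes of the mature neutrophil, 11 had a correlation with Ngp above 0, with a median of 0.43 over the list. Only 1 (Retnlg) had one over 0.9, as did 1.37% of all tested genes outside the members. The share of all tested genes with a correlation above 0 was not counted. The order across the libraries differed among the 12 genes. Il1b, the cytokine interleukin 1 beta, had 71.7, 69.5 and 123 normalized counts in deletion libraries and 67.3, 89.6 and 164 in control libraries, highest in replicate 3 of each genotype. Csf3r, the receptor of granulocyte colony-stimulating factor, had 170.3, 97.1 and 159 in deletion libraries and 132, 90.7 and 135 in control libraries, lowest in replicate 2 of each genotype. Ptgs2, the inducible prostaglandin synthase, spanned 6.51-fold, from 717 in control replicate 3 down to 110.1 in control replicate 1, and Ccr1, a chemokine receptor, 1.59-fold. Retnlg, resistin-like gamma, had 14.2, 39.7 and 19.3 in deletion libraries and 11.1, 25.3 and 43.0 in control libraries, again lowest in the replicate 1 libraries. Ly6g, the surface marker of mouse neutrophils, had at most 8.04. It was at 0 in deletion replicates 1 and 2 and control replicate 1, the set with fewer genes detected. Retnlg and Ly6g were named after their values were seen. The 12 tested genes of this list had a median fold change of -0.03 and 0 were called.

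Among the other macrophage genes, 0 of 23 tested were called, and their median fold change was 0.01. The highest included Lgmn, a lysosomal protease, Ctss, cathepsin S, and Tmem119, known as a marker of microglia and also expressed in bone-forming cells. Their log2 fold changes lay between 0.00 (Lgmn) and 0.04 (Ctss). C1qb, named with C1qc because they encode the chains that assemble with that of C1qa, had 746, 605 and 601 normalized counts in deletion libraries and 718, 532 and 644 in control libraries. C1qc had 669, 583 and 512 in deletion libraries and 669.7, 463 and 569 in control libraries. As for C1qa, the replicate 1 libraries were the highest for both. P2ry12, a purinergic receptor of microglia, was the gene of this list with an unadjusted p under 0.05. It had 95.6, 79.5 and 106 in deletion libraries and 132, 119 and 119 in control libraries, or -0.40 ± 0.16 as a log2 fold change (SE; adjusted p = 0.982, limma).

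The ligands of these receptors and the chemokines had log2 fold changes between -0.36 and 0.15. Csf1 had a log2 fold change of 0.15 ± 0.15, Cx3cl1, the ligand of Cx3cr1, 0.13 ± 0.16 and Cxcl12, a chemokine that retains neutrophils in marrow, 0.02 ± 0.07 (SE). Cxcl5, a neutrophil attractant, had 551, 610.5 and 721 normalized counts in deletion libraries and 684, 749.7 and 989.6 in control libraries, or -0.36 ± 0.15 as a log2 fold change (SE; adjusted p = 0.982, limma). Of 8 tested ligands and chemokines 0 were called. Of 9 tested complement components 0 were called, with C1s1, a protease of the C1 complex, at 0.02 ± 0.14, C3 at 0.27 ± 0.34 and C4b at 0.22 ± 0.20. Of 11 tested monocyte and general myeloid genes 0 were called. Their highest, Lyz2, lysozyme 2, had 7559, 5227 and 4328 in deletion libraries and 5885, 3242 and 3722 in control libraries, while Ptprc, the leukocyte antigen CD45, was at a log2 fold change of 0.01 ± 0.16, Cybb, the phagocyte oxidase, at 0.02 ± 0.16 and Ccr2, a monocyte chemokine receptor, at -0.21 ± 0.21.

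Markers of other cells that the dissected tissue could hold ran with Ngp in part. Of the 6 tested erythroid genes, 3 had a correlation over 0.9 with Ngp, as did 1.37% of all tested genes outside the members. Slc4a1, the anion exchanger of the red cell membrane, had 7.47, 66.2 and 31.4 normalized counts in deletion libraries and 5.91, 54.0 and 76.7 in control libraries. It ranked the 6 libraries in the same order as Ngp. Rhd, of the Rhesus blood group, had 2.99, 11.04 and 7.24 in deletion libraries and 5.17, 17.2 and 17.4 in control libraries, and was lowest in both replicate 1 libraries as well. Hba-a1, alpha-globin, did not: it had 288, 357 and 221 in deletion libraries and 410.3, 338 and 401 in control libraries. Alas2, the erythroid enzyme of haem synthesis, had 113, 145 and 121 in deletion libraries and 179, 162 and 191 in control libraries. Its groups did not overlap, as held for 7.68% of all genes tested. Alas2 was not called (log2 fold change -0.49 ± 0.14 SE, adjusted p = 0.982, limma). Over the whole erythroid list, with 6 of 7 genes found, the summed level lay between 486 and 754 in deletion libraries and between 734 and 869 in control libraries. Its part in the neutrophil values was not tested.

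**Figure D4:**
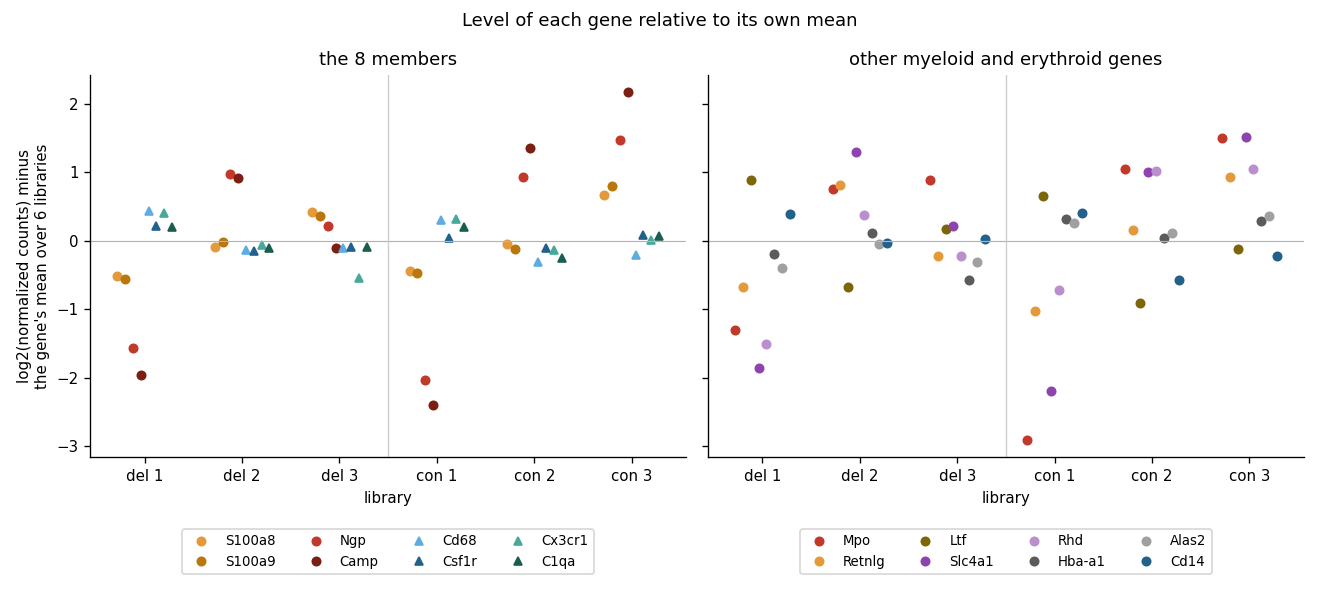
Log2 normalized counts of each gene minus its own mean over the 6 libraries (vertical axis), for the 8 members (left) and for other myeloid and erythroid genes (right). Ngp, Camp, Slc4a1 and Mpo lie below 0 in both replicate 1 libraries and spread over several log2 units. On the right, Retnlg and Rhd also lie below 0 in both, and Ltf and Cd14 lie above 0 in both. Hba-a1 and Alas2 lie below 0 in deletion replicate 1 and above 0 in control replicate 1. No macrophage gene among the 8 members spans more than 1.93-fold.

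The remaining marker lists gave 0 calls. Prg2, the major basic protein of eosinophil granules, which is also made in marrow precursors, had 2.99, 13.2 and 12.1 normalized counts in deletion libraries and 0.739, 35.6 and 72.1 in control libraries, again lowest in the replicate 1 libraries (r with Ngp 0.95). The other genes of mast cells and eosinophils, such as Siglecf (32.0 to 95.4 in deletion libraries and 51.7 to 82.6 in control libraries), stayed below a correlation of 0.9. Bone transcripts were present in every library. Col1a1, the main collagen of bone and connective tissue, had 68004 to 86939 in deletion libraries and 77762 to 79253 in control libraries, and Ibsp, bone sialoprotein, had 1325 to 2338 in deletion libraries and 1714 to 2373 in control libraries. Ctsk, cathepsin K of osteoclasts, had 1737 to 2282 in deletion libraries and 1901 to 2363 in control libraries. The correlation with Ngp was -0.47 for Col1a1, 0.32 for Ibsp and -0.16 for Ctsk, and 0 of the 9 tested bone and osteoclast genes exceeded 0.9. The summed bone and osteoclast level lay between 72961 and 93454 in deletion libraries and between 83791 and 85597 in control libraries. Summed B and plasma cell genes lay between 214 and 601 in deletion libraries and between 339 and 448 in control libraries, and T and natural killer cell genes between 108 and 176 in deletion libraries and between 133 and 148 in control libraries. Ighm, the heavy chain of IgM, spanned 2.91-fold and Jchain, the joining chain of secreted antibodies, 7.94-fold, with neither called. Mzb1, a protein of plasma cells named for its unadjusted p of 0.0419, had 26.1, 18.8 and 29.0 in deletion libraries and 11.8, 11.5 and 17.4 in control libraries (adjusted p = 0.982, limma).

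The genes whose pattern over the 6 libraries was most like the mean log2(value + 1) of the 4 neutrophil genes included Fpgt, Rhot1, Fam124b, Olfr786, Ggps1, Nxpe5 and Gm13481, with Pearson correlations between 0.998 and 0.986. Each of them spanned fewer fold than Ngp. Fpgt, the first, had 1822, 2069 and 2051 normalized counts in deletion libraries and 1824, 2092 and 2211 in control libraries. Those most like the mean of the 4 macrophage genes were Tlr2, Slc10a3, Pid1, Cybb, Cd53, Rab29, F11r and Gm26908, with correlations between 0.994 and 0.987. Tlr2, a receptor for bacterial lipoproteins on myeloid cells, had 193, 123 and 105.0 in deletion libraries and 168, 113 and 137 in control libraries. The tetraspanin Cd53 and the oxidase subunit Cybb, both of leukocytes, were highest in deletion replicate 1 and next in control replicate 1, as Cd68 and Cx3cr1 were. With 6 points and many genes, such correlations describe these libraries only.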

How the data were processed

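Per the labels' protocols, total RNA of olfactory mucosa was column-purified, depleted of ribosomal RNA and made into stranded Illumina libraries. STAR 2.6.0, DESeq2 and GRCm38.p6 are named, per the submitters' processing notes. Not given in the sources used here: read counter, annotation and strand setting. The authors deposited, for each of 6 libraries, normalized counts: a signal that is never negative, gene counts divided by a size factor per library. All values above 0 were whole multiples of 1 read (100% in each library, tolerance 0.001 reads), so the reads were recovered. In the same deposited table stand the log2 fold change (control over deletion) of the authors, its standard error, a test score, p-value and adjusted p-value.

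The 20368 genes that reached 10 in 3 or more libraries were tested with limma 3.58.1 (trend) in R 4.3.3 on log2(value + 1), Benjamini-Hochberg adjusted, threshold 0.05. Fits without some libraries kept this gene set. The alternatives used edgeR 4.0.16 and DESeq2 1.42.0 on the recovered reads, a pseudocount of 10, no filter, TMM scaling, the library set or replicate number as a term, and fewer libraries. The test step was tested on simulated data. Replicates of a group were not copies (chi-square of the reads per gene at least 17.4). The 8 members and the 13 gene lists were chosen with earlier results of these data known. Where a symbol had 2 rows (Itgam), the higher was used. The naming rule took the members, the 4 highest genes of each list, any called gene and the 8 genes most like each class by Pearson correlation; genes named beyond it were picked with their values in view. Some genes that the rule names are not reported here. Positions and exon lengths came from GENCODE vM21 (GRCm38; 39985 of 40273 identifiers matched, all 8 members among them) and start regions from RefSeq (GRCm38.p6; 6 of 8 members, without Csf1r and C1qa). The labels call the animals separate, so p-values measure the spread between animals and their libraries.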

Additional observations from a re-analysis of the deposited data

How the results depend on the processing

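No member was called under any of 16 alternatives (adjusted p from 0.0763, Camp in the set with 2 control libraries, to 1.00, limma, edgeR and DESeq2). The log2 fold change of each of the 8 members changed sign under at least 1 alternative, without a call, and the cause was not tested. With the library set as a term they were 0.12 (S100a8), 0.10 (S100a9) and 0.34 (Ngp). Within the set with 1 control library they were 0.13 (S100a8), 0.18 (S100a9), 1.64 (Ngp), 1.58 (Camp) and -0.15 (Cd68), and within the set with 2 control libraries 0.11 (S100a8) and 0.014 (S100a9). Leaving out 1 library gave -0.37 to 0.18 for S100a8, -0.41 to 0.22 for S100a9, -1.28 to 0.43 for Ngp, -1.98 to 0.048 for Camp, -0.045 to 0.33 for Cd68, -0.13 to 0.058 for Csf1r, -0.37 to 0.11 for Cx3cr1 and -0.14 to 0.089 for C1qa. The difference in log2 neutrophil over macrophage ratio lay between -0.55 and 0.24 in the same omissions and moved by less than the within-group SD in each alternative.

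Over all genes the 15 calls became 40 with DESeq2, 36 with a term for library set, 2 and 90 within the sets with 1 and 2 control libraries, 46 with the replicate block, 9 with replicates 2 and 3 only, and between 6 and 24 without 1 library: 9 without control replicate 1, 6 without control replicate 2 or deletion replicate 2 and 24 without deletion replicate 3. The replicate numbers are not said to mark a shared litter or day. Deviations from the group means correlated by 0.65, -0.34 and 0.66 between same-numbered libraries of the 2 groups, and deletion replicate 2 correlated best with control replicate 1 (0.50), so the numbers were not taken as pairs. With the replicate block no member was called (adjusted p = 0.648 to 0.983, limma). Camp rests on 4 reads in deletion replicate 1 and 3 in control replicate 1, the deepest libraries of their groups.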
